A study of Mus musculus with 477 samples.

Results

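Hormone-sensing luminal cells are the mammary epithelial cells that carry receptors for estrogen, progesterone and prolactin. Here they were sought among sorted luminal cells of the mouse mammary gland by the reads of 2 receptor genes. A luminal cell was taken when Prlr, the prolactin receptor, reached 500 CPM (counts per 1000000, that is, the reads of a gene divided by all gene reads of that cell, times 1000000), or when Esr1, estrogen receptor alpha, reached 100 CPM. The rule took 87 of 312 luminal cells, in a series of 477 cells, and left 225 other luminal cells for comparison. The cells were chosen by these 2 measured values, so Prlr and Esr1 are given only as a description.

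The study sequenced single cells on the Fluidigm C1 platform to resolve the make-up of Brca1-deficient mammary tumors and of mammary luminal cells. Its luminal cells came from 7 female mice of mixed C57BL/6 and 129/Sv background, aged 3 to 4 months. All 7 carried MMTV-Cre, a recombinase under a viral promoter active in mammary epithelium, and the ROSA mT/mG reporter, which turns on membrane GFP in cells where Cre has acted. Virgin mice were vBrL (Brca1 fl/fl, 35 cells), vBr53L (Brca1 fl/fl and Trp53 fl/+, 39 cells) and v53L (Trp53 fl/+, 40 cells). Mice at day 12.5 of pregnancy were pBrL-1 and pBrL-2 (Brca1 fl/fl, 71 and 38 cells), pBr53L (Brca1 fl/fl and Trp53 fl/+, 53 cells) and p53L (Trp53 fl/+, 36 cells). Each group thus rested on 1 mouse, apart from pBrL with 2, and no mouse without a conditional allele was among them. Cells had been gated as DAPI-, CD24 high, CD29 low and positive for membrane GFP, so they are luminal cells in which Cre had acted. Luminal cells held 170209 to 3550564 reads each, with a median of 1641930.5. Genotype, stage and mouse cannot be told apart within a group. The virgin and pregnant Br53L mice shared one chip, the virgin and pregnant 53L mice another, pBrL-2 shared one with the tumor Br53T2, and vBrL and pBrL-1 each had their own.

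In the mammary gland the hormone-sensing cells are a minority of the luminal layer. They bind the steroid hormones and pass the signal on through secreted factors such as amphiregulin (Areg) and RANK ligand (Tnfsf11), which act on neighbouring receptor-negative cells. Prolactin, by contrast, acts on the alveolar cells themselves, in which Prlr, Jak2 and Stat5 drive the milk genes during pregnancy. A cell with Prlr reads is therefore not by that alone a hormone-sensing cell, so the label was checked with Pgr, Cited1 and Foxa1, which the rule did not use. Pgr is the progesterone receptor, Cited1 a coactivator of estrogen receptor alpha, and Foxa1 the pioneer factor that opens chromatin for it.

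The label held in virgin mice and not in pregnant mice. To put cells on one depth, the reads of each cell were thinned to 100000, and 0 cells were shallower than that. In virgin mice 42 of 50 Prlr/Esr1-high cells had a read of Pgr, Cited1 or Foxa1 (84%, exact 95% binomial interval 70.9 to 92.8%), against 4 of 64 other cells (6.25%, 1.73 to 15.2%). In pregnant mice 4 of 37 Prlr/Esr1-high cells had one (10.8%, 3.03 to 25.4%), against 6 of 161 other cells (3.73%, 1.38 to 7.93%). Without thinning the counts were 46 of 50 and 32 of 64 in virgin mice and 8 of 37 and 12 of 161 in pregnant mice. The intervals cover counting error only, and since these reads carry no molecular identifiers they are not independent molecules.

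By mouse, the share of Prlr/Esr1-high cells with a read of Pgr, Cited1 or Foxa1 was 76.9% in vBrL (10 of 13), 66.7% in vBr53L (6 of 9) and 92.9% in v53L (26 of 28). It was 0% in pBrL-1 (0 of 11, which allows up to 28.5%), 11.1% in pBrL-2 (1 of 9), 12.5% in pBr53L (1 of 8) and 22.2% in p53L (2 of 9). The stages did not overlap, with a mean of 78.8% ± 13.2 (SD, n = 3 mice) in virgin and 11.5% ± 9.10 (SD, n = 4 mice) in pregnant mice. The difference of 67.4 percentage points had p = 0.0286 in a two-sided exact permutation test over the 35 splits of the 7 mice, the smallest p these mice can give. This test was chosen after the values were seen. The cells in virgin mice thus carried the label's other markers, whereas most of those in pregnant mice did not, and all 87 are called Prlr/Esr1-high cells below.

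**Figure D1:**
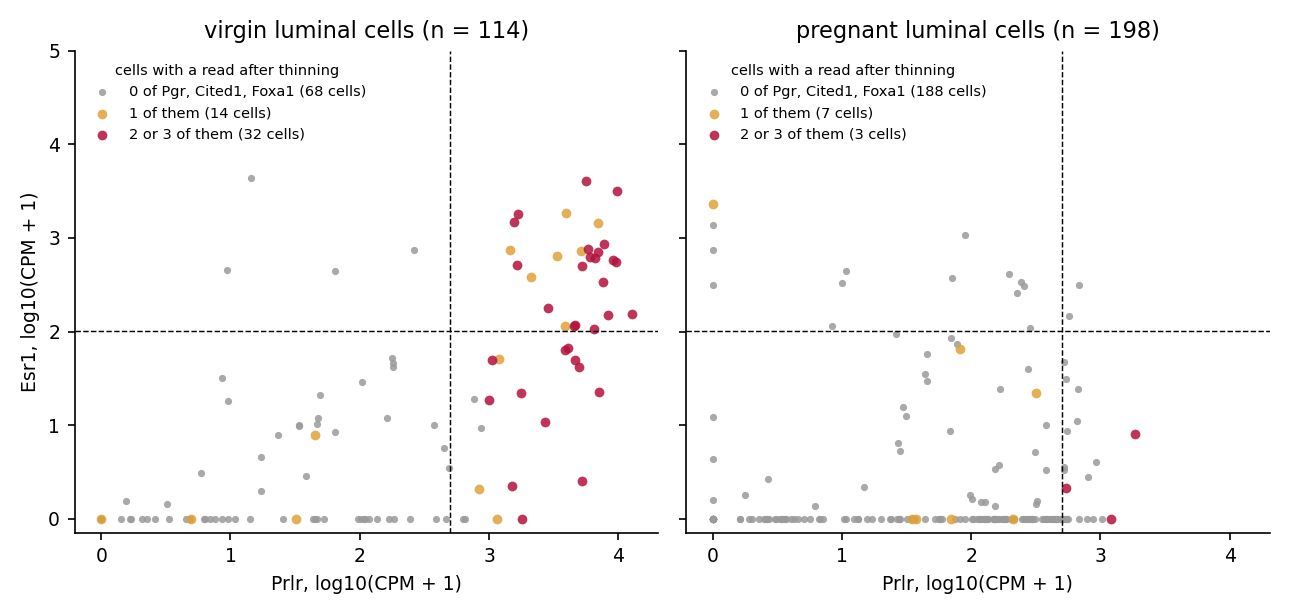
Prlr (horizontal) against Esr1 (vertical), log10(CPM + 1), in each virgin (left, 114 cells) and pregnant (right, 198 cells) luminal cell, with dashed lines at 500 and 100 CPM. Colours give how many of Pgr, Cited1 and Foxa1 had a read after thinning, and the 32 virgin cells with 2 or 3 of them lie to the right of the Prlr line, while 3 pregnant cells reach that number.

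The promoters of Pgr and Foxa1, and of the ligand genes Areg and Calca described further on, are shown because Pgr and Foxa1 check the label and Areg and Calca are ligand genes called in virgin mice. Each line gives the 250 bases before the RefSeq transcription start, 5′ to 3′ on the gene's strand, build GRCm38.p6. Capitals mark matches on either strand to any of 5 motifs. The estrogen response element was searched as GGTCANNNTGACC. Its half-site, which can overlap the full element, was searched as AGGTCA. The forkhead motif, of the class that FOXA1 binds, was TGTTTAC. The STAT motif, of the class that prolactin signalling uses, was TTCNNNGAA. The GATA motif, of the class that GATA3 binds, was AGATAA.

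Pgr, chr9:8899583-8899832, plus strand: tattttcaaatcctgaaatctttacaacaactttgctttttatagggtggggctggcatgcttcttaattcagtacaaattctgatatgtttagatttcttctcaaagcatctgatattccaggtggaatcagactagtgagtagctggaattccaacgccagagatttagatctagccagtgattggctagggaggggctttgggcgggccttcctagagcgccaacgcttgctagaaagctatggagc
Foxa1, chr12:57546112-57546361, minus strand: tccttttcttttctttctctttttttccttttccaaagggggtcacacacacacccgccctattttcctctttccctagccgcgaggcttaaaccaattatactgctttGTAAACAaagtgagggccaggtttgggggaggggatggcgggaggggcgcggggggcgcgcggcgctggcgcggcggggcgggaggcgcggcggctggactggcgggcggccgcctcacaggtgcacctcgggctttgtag
Areg, chr5:91139349-91139598, plus strand: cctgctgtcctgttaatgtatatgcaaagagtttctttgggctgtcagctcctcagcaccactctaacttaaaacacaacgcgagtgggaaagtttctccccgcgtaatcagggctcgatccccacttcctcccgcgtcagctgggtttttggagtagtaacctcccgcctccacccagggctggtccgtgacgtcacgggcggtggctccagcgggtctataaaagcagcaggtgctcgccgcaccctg
Calca, chr7:114636358-114636607, minus strand: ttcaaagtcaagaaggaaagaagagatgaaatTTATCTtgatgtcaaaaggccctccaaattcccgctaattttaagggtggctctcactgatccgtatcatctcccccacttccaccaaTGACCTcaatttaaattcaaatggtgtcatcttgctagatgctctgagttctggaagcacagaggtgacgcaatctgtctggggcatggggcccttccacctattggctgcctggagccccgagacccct

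Calca held a half-site and a GATA match, Foxa1 a forkhead match, and the windows of Pgr and Areg none of the 5 motifs. Over all 32851 windows of this length the half-site was in 14%, the GATA motif in 9.99%, the STAT motif in 7.02%, the forkhead motif in 3.17% and the full element in 0.0639%. Of the 21 genes called in virgin mice (below), 14 had 17 windows in the table, and 3 windows held the half-site, 3 the GATA motif, 2 the forkhead motif and 0 the STAT motif or the full element. These are descriptions of letters and not of bound sites.

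The cells that met the rule differed by stage in Prlr itself, which is described here with no test. In virgin mice Prlr reached a median of 3848 CPM over the 50 cells and a maximum of 12726 CPM, and 41 cells were at or above 1000 CPM. In pregnant mice the median over the 37 cells was 535 CPM, the maximum 1862 CPM, and 3 cells were at or above 1000 CPM. By mouse the median was 2122 CPM in vBrL, 1504 CPM in vBr53L and 5188 CPM in v53L, and 403 to 558 CPM in the pregnant mice. Of the pregnant cells taken by Prlr, 12 lay under 600 CPM, against 0 in virgin mice. The lowest cell taken by Prlr had 513 CPM and the highest cell left out had 491 CPM, and 11 cells left out had at least 400 CPM. For Esr1 the lowest cell taken had 105 CPM and the highest left out 93.7 CPM. Prlr had a read in 195 of the 225 other cells and Esr1 in 58, so low Prlr was common in luminal cells outside the class.

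How a cell met the rule went with the other markers. In virgin mice 27 cells passed both thresholds, 19 passed Prlr only and 4 passed Esr1 only. Pgr, Cited1 or Foxa1 was read in 27 of the 27 cells past both, in 15 of the 19 with Prlr only and in 0 of the 4 with Esr1 only. All 41 virgin cells with at least 1000 CPM of Prlr had such a read, against 1 of the 5 between 500 and 1000 CPM. In pregnant mice 2 cells passed both thresholds, 21 Prlr only and 14 Esr1 only, and the marker read was found in 0, 3 and 1 of them. The 8 virgin cells with none of these markers had a median of 41188 CPM summed over the 8 milk protein genes, against 403 CPM in the 42 with a marker and 28890 CPM in other virgin cells. These medians pool cells over mice. Of the 42 marked cells 26 came from v53L, and their values ran from 4.25 to 70019 CPM over the 3 mice. In pregnant mice the 33 unmarked cells had a median of 129295 CPM of milk protein reads, beside 125617 CPM in other pregnant cells.

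The 4 marked cells in pregnant mice were few enough to give 1 by 1. The cell from pBrL-2 had 1862 CPM of Prlr, 132 CPM of Pgr, 4651 CPM of Tph1 and 2.99 CPM of Csn3, the kappa-casein gene. The cell from pBr53L had 1200 CPM of Prlr, 143 CPM of Pgr, 882 CPM of Cited1, 96.7 CPM of Foxa1 and 387 CPM of Csn3. In p53L the first cell had 541 CPM of Prlr, 861 CPM of Cited1 and 1673 CPM of Csn3. The second had 0 reads of Prlr, 2300 CPM of Esr1, 317 CPM of Foxa1, 0 reads of Pgr and Cited1, and 6012 CPM of Csn3. The first 3 therefore had reads of Prlr, Pgr and Cited1, and the fourth did not.

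The share of luminal cells taken by the rule, which is made of the Prlr and Esr1 values themselves and is given with no test, was higher on average in virgin mice, with an overlap between the stages. It was 37.1% in vBrL (13 of 35, exact 95% interval 21.5 to 55.1%), 23.1% in vBr53L (9 of 39, 11.1 to 39.3%) and 70% in v53L (28 of 40, 53.5 to 83.4%). It was 15.5% in pBrL-1 (11 of 71, 8.0 to 26%), 23.7% in pBrL-2 (9 of 38, 11.4 to 40.2%), 15.1% in pBr53L (8 of 53, 6.75 to 27.6%) and 25% in p53L (9 of 36, 12.1 to 42.2%). v53L stood above every other mouse, and vBr53L lay among the pregnant mice. The means were 43.4% ± 24.1 (SD, n = 3) and 19.8% ± 5.25 (SD, n = 4), a difference of 23.6 points that was 10.3 points without v53L. It was 27.4 points with Prlr alone, 22.8 with both thresholds, 30.6 with doubled thresholds and 26.5 on thinned cells, where the stages did not overlap. It was 18.9 points with Esr1 alone and 12.8 points with halved thresholds, where they did. On the chip shared by the Br53L mice the virgin share was 7.98 points higher, and on the chip shared by the 53L mice 45 points higher. The sort gate sets which luminal cells were sequenced, and its part in these shares was not tested.

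Between Brca1 genotypes the share was 22.9% ± 8.93 (SD, n = 5) in Brca1 fl/fl mice and 47.5% ± 31.8 (SD, n = 2) in mice with intact Brca1. The difference of -24.6 points was -2.1 points without v53L and -47.1 points without p53L. Over the other rules it ran from -25.1 points with Prlr alone to -14.5 points with Esr1 alone, and the genotypes overlapped under each of them except halved thresholds (-22.1 points).

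**Figure D2:**
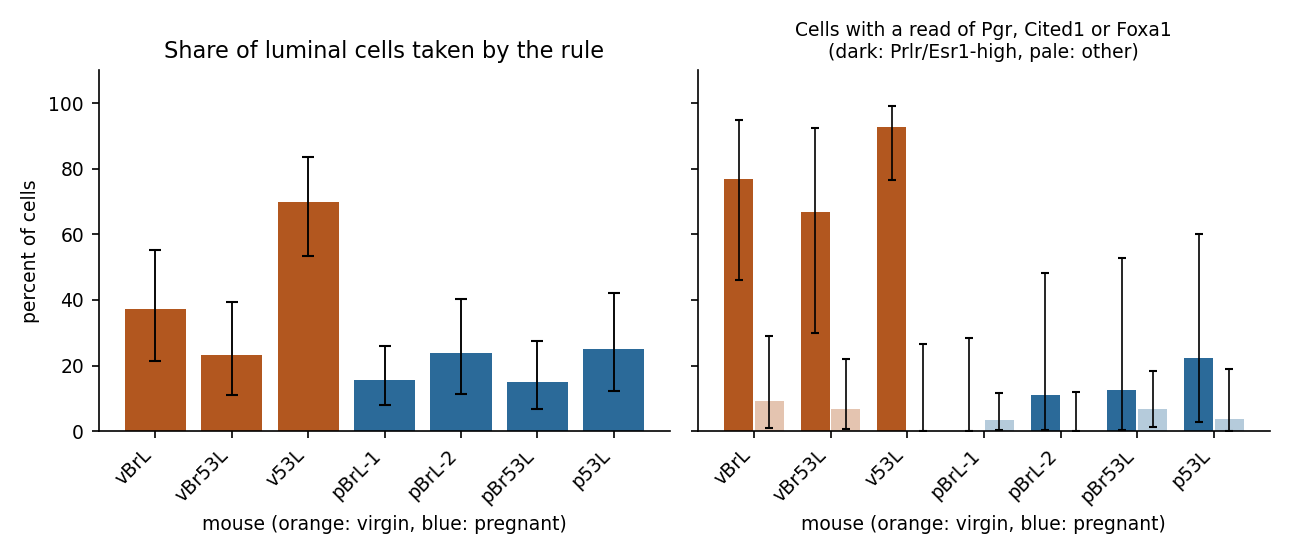
Left, percent of each mouse's luminal cells taken by the rule. Right, percent of Prlr/Esr1-high (dark) and other (pale) cells with a thinned read of Pgr, Cited1 or Foxa1. Bars are single mice with exact 95% binomial intervals, orange for virgin and blue for pregnant, and in the right panel the 3 virgin mice lie at 66.7 to 92.9% and the 4 pregnant mice at 0 to 22.2% for the Prlr/Esr1-high cells.

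Gene expression was compared within mice, with the reads of the Prlr/Esr1-high cells and of the other cells summed in each mouse. In virgin mice the cells that carried these receptors also had higher levels of 21 other genes, among them Areg, Calca, Bmp3, Ptn, Tph1, Cited1, Foxa1, Adra1a and Agtr1a. In the other cells of those mice the summed level of each of these 9 was at most 36.9 CPM, although thinned reads of Ptn were in 21 and of Calca in 14 of the 64 other virgin cells. There 21 of 10451 genes tested were called (adjusted p under 0.05, edgeR quasi-likelihood test with Benjamini-Hochberg adjustment and the mouse as a block), which is 0.201% of genes, all of them higher in the Prlr/Esr1-high cells and 0 lower. At an unadjusted p under 0.05 there were 623 genes. The count was 41 without vBrL and 42 without v53L, each a fit of 2 mice with 1 residual degree of freedom. It was 0 with Esr1 alone as the rule, under which the fitted value of Foxa1 was -0.51. In pregnant mice 0 of 10924 genes were called (edgeR, 0% of genes, 438 at an unadjusted p under 0.05), limma on mean CPM also called 0, and DESeq2 called 304, of which 42 were higher and 262 lower. Over all 7 mice edgeR called 2 of 10519 genes (0.019%), Cited1 and Cxcl15, both higher, with 484 genes at an unadjusted p under 0.05. That count was 0 without vBrL, 0 without vBr53L and 13 without pBrL-1. DESeq2 called 354 genes over all mice (106 higher and 248 lower) and 779 in virgin mice (492 higher and 287 lower). Whether the class difference itself differed between stages was tested by an interaction term, for which edgeR called 0 of 12503 genes (682 at an unadjusted p under 0.05), limma 0 and DESeq2 737. The edgeR count was 1 without vBrL, 1 without vBr53L and 2 without v53L. The larger set in virgin mice is therefore not shown by edgeR to be particular to them.

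**Figure D3:**
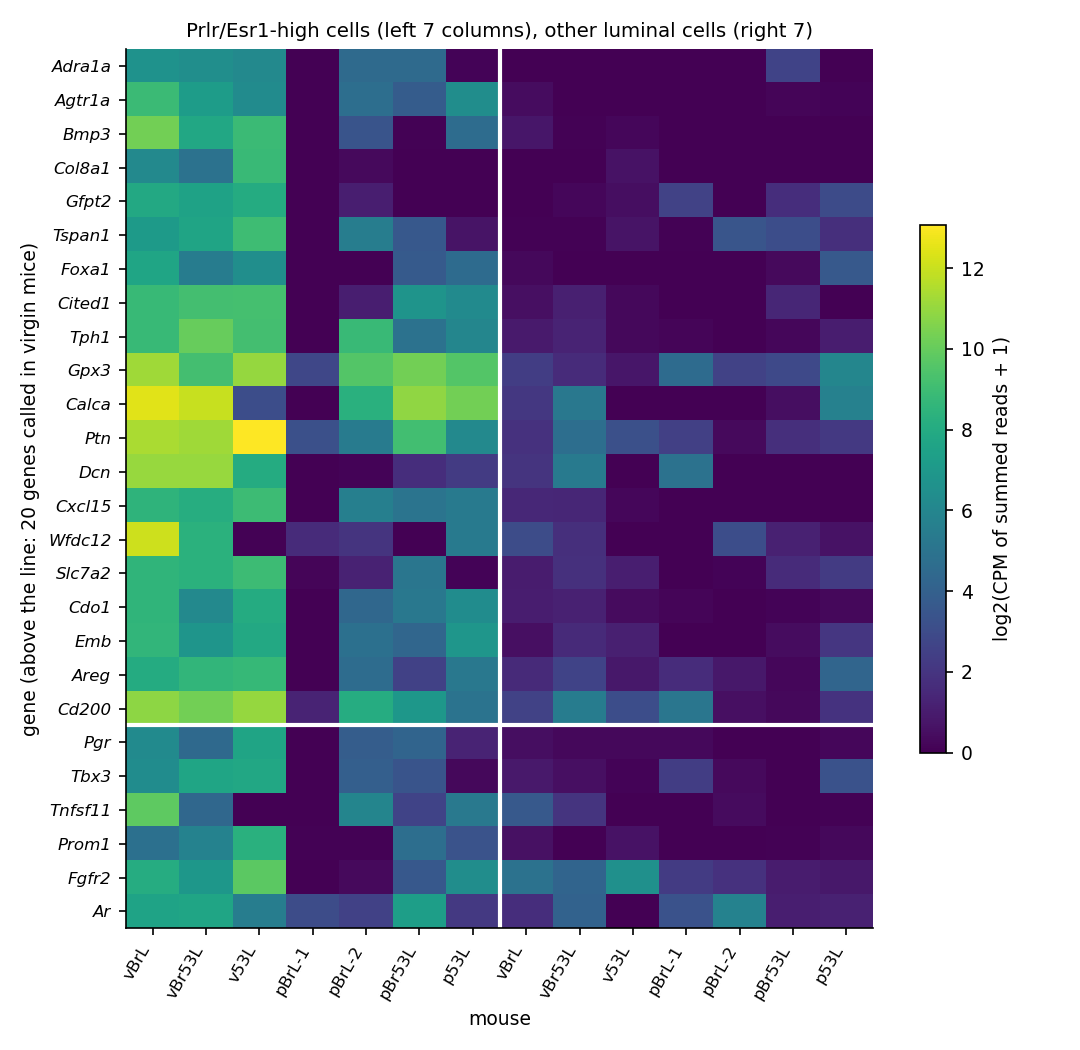
log2(CPM + 1) of summed reads for 20 of the 21 genes called in virgin mice (above the horizontal line) and 6 further genes of the fixed lists that were not called (below it), in Prlr/Esr1-high cells (left 7 columns) and other luminal cells (right 7 columns) of each mouse. The first 3 columns, the virgin mice, are bright for nearly every gene above the line, with Wfdc12 and Calca dark or dim in v53L, and the column of pBrL-1 is dark for nearly all.

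Some of the paracrine signal genes were higher in the Prlr/Esr1-high cells of virgin mice. The list fixed for them holds 9 genes, that is, ligands and Tph1, the enzyme that starts serotonin synthesis. Of these, 6 passed the low-count filter, Ihh, Igf1 and Fgf7 did not, and the genes called were Areg, Calca and Tph1. A gene read only in the Prlr/Esr1-high cells passes the filter through them, so no summary over the list is given. Areg, an EGF receptor ligand through which estrogen acts on the ductal epithelium, had 262 CPM in vBrL, 390 CPM in vBr53L and 429 CPM in v53L. In the other cells of those mice it had 1.96, 5.26 and 0.779 CPM (log2 fold change 7.22 ± 0.79 (SE), edgeR adjusted p = 0.0103). All 3 mice showed the direction, as did 17.9% of genes tested in virgin mice. Thinned reads of Areg were in 33 of 50 Prlr/Esr1-high and 13 of 64 other virgin cells.

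Calca, which encodes calcitonin and the neuropeptide CGRP, was high in 2 of the 3 virgin mice. It had 5672 CPM in vBrL and 3998 CPM in vBr53L but 7.45 CPM in v53L, and 3.35, 36.9 and 0 CPM in the other cells (log2 fold change 8.77 ± 0.99, edgeR adjusted p = 0.0125). Tph1 had 442, 1059 and 578 CPM against 0.936, 1.43 and 0.234 CPM (9.59 ± 0.70, edgeR adjusted p = 0.00230). Tph1 was thus high in all 3 mice, while Calca separated v53L from the other 2. Tnfsf11, the RANK ligand, was uneven as well and was not called in virgin mice (edgeR adjusted p = 0.444). It had 896 CPM in vBrL, 19.7 CPM in vBr53L and 0 reads in v53L, with 11.6, 2.85 and 0 CPM in the other cells. Wnt4, a progesterone-induced ligand, had 113, 19.2 and 37.0 CPM against 39.8, 2.67 and 2.18 CPM and was not called (edgeR adjusted p = 0.914).

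Other secreted products among the called genes were Bmp3, Ptn, Cxcl15, Gpx3, Col8a1, Wfdc12 and Dcn. Bmp3, a ligand of the BMP family, had 1237 CPM in vBrL, 226 CPM in vBr53L and 476 CPM in v53L, with at most 0.718 CPM in other cells (11.25 ± 0.75, edgeR adjusted p = 0.00230). Ptn, the growth factor pleiotrophin, had 2709, 2338 and 8570 CPM against 2.68, 25.5 and 8.11 CPM (8.74 ± 0.86, edgeR adjusted p = 0.00539). Cxcl15, a chemokine, had 367, 280 and 501 CPM against 1.74, 1.67 and 0.156 CPM (8.40 ± 0.98, edgeR adjusted p = 0.0151), and over all 7 mice its log2 fold change was 9.71 ± 1.09 (edgeR adjusted p = 0.0170). Bmp3, Ptn and Cxcl15 were each higher in every virgin mouse, as were 17.9% of genes tested there. Gpx3, the secreted glutathione peroxidase, had 2340, 572 and 2046 CPM against 4.24, 2.07 and 0.701 CPM. Wfdc12, a protease inhibitor of the whey acidic protein family, was carried by vBrL (4235 CPM) and vBr53L (321 CPM), with 0.0727 CPM in v53L. Its thinned reads were in 11 of 50 Prlr/Esr1-high and 17 of 64 other virgin cells, so it was high in few cells and not read more often in the class.

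Dcn encodes decorin, a matrix proteoglycan best known from fibroblasts. It had 2106 CPM in vBrL, 2099 CPM in vBr53L and 258 CPM in v53L, against 2.94, 40.0 and 0 CPM in other cells (8.64 ± 1.25, edgeR adjusted p = 0.0479). The other fibroblast markers were at or near 0 in the same cells, with Col1a1 at most 0.109 CPM, Pdgfra at most 1.80 CPM, and Col1a2, Col3a1, Lum and Pdgfrb with 0 reads in virgin Prlr/Esr1-high cells. Of 7 fibroblast markers 1 was tested and called, Dcn itself.

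Receptors and regulators moved in part. Cited1 had 439, 569 and 585 CPM in the Prlr/Esr1-high cells of vBrL, vBr53L and v53L, against 0.457, 1.25 and 0.234 CPM (9.71 ± 0.73, edgeR adjusted p = 0.00230). Over all 7 mice it was higher in 6 and at 0 reads in both classes of pBrL-1 (9.25 ± 0.94, edgeR adjusted p = 0.0108). Foxa1 had 204, 43.8 and 85.5 CPM against 0.218, 0.0199 and 0 CPM (10.65 ± 1.52, edgeR adjusted p = 0.0479), a call that held in 5 of 13 alternatives. Pgr, at 73.9, 20.9 and 195 CPM against 0.392, 0.199 and 0.234 CPM, was not called (7.73 ± 1.41, edgeR adjusted p = 0.138). These 3 genes separated the classes in all 3 virgin mice, and thinned reads of Pgr were in 32 of 50 Prlr/Esr1-high cells and 0 of 64 other cells. Of the 14 transcription regulators fixed for the comparison 12 were tested and 0 called. Tbx3, a T-box factor of mammary development, had 80.8, 205 and 225 CPM against 0.849, 0.458 and 0.0779 CPM and missed the threshold (8.53 ± 1.27, edgeR adjusted p = 0.0519). Gata3, a luminal regulator shared by both lineages, had 310, 319 and 333 CPM against 315, 330 and 244 CPM.

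Among the called genes that receive signals were Adra1a, the alpha-1A adrenergic receptor, and Agtr1a, the angiotensin II receptor. Adra1a had 98.9, 87.8 and 69.6 CPM, and its other cells held 2 reads in all 3 mice together (ratio 4594, counting interval 1272 to 37936). Adra1a and Col8a1 were each called in 7 of 13 alternatives, and the called genes other than these and Foxa1 in 9 to 12. Agtr1a had 472, 150 and 78.4 CPM against at most 0.348 CPM. Metabolic and membrane genes were also called. Tspan1, a tetraspanin, had 139, 198 and 519 CPM against at most 0.623 CPM. Gfpt2, of the hexosamine pathway, had 235, 185 and 264 CPM against at most 0.390 CPM. Slc7a2, a cationic amino acid transporter, had 376, 323 and 500 CPM, Cd200, a membrane glycoprotein that restrains myeloid cells, 1814, 1262 and 2065 CPM, and both were called, as were Cdo1 (cysteine dioxygenase) and Emb (embigin).

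Other fixed lists gave no call in virgin mice apart from Tspan1, which also stood in the progenitor list. The 8 tested response genes of estrogen and progesterone had 0 calls. Stc2, an estrogen-responsive secreted glycoprotein, had 1550 CPM in v53L but 68.5 CPM in vBrL and 108 CPM in vBr53L (edgeR adjusted p = 0.621). The 8 tested surface genes had 0 calls, although Prom1, which encodes CD133, had 27.5, 53.8 and 316 CPM against 0.522, 0 and 0.546 CPM (8.56 ± 1.81, edgeR adjusted p = 0.244). Of the receptors for the ligands, 13 were tested and 0 called. Fgfr2 had 274, 121 and 864 CPM against 29, 17.8 and 93.9 CPM (2.89 ± 0.49, edgeR adjusted p = 0.0983), and Tnfrsf11a, the RANK receptor, 22.9, 18.6 and 27.6 CPM against 73.3, 6.53 and 166 CPM. Of 14 prolactin pathway genes 0 were called.

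Most milk and progenitor genes tested in virgin mice had a negative fitted value, and edgeR called 0 of them lower, as it called 0 of all genes lower where DESeq2 called 287. The 8 milk protein genes summed to 19958 CPM in vBrL, 40636 CPM in vBr53L and 13327 CPM in v53L, against 44847, 32847 and 102200 CPM in the other cells. The sum was lower in vBrL and v53L and higher in vBr53L, and all 7 tested genes had a negative fitted log2 fold change (median -1.43, 0 called). The 17 luminal progenitor genes summed to 8589, 20061 and 7396 CPM, against 20494, 38842 and 35530 CPM in the other cells. Of the 17, 15 had a negative fitted value (median -1.42, 1 called higher, Tspan1). The median over all genes tested in virgin mice was 0.07. Wfdc18, a secreted inhibitor of the progenitor list, had 5426, 10763 and 1354 CPM against 14740, 24008 and 6779 CPM (-1.82 ± 0.40, edgeR adjusted p = 0.279). Kit, the receptor that marks luminal progenitors, was lower in the Prlr/Esr1-high cells of 7 of 7 mice and not called (-1.59 ± 0.42, edgeR adjusted p = 0.890). Krt7, a keratin, was higher in 7 of 7 mice and not called (2.02 ± 0.45, edgeR adjusted p = 0.498). Among all genes tested 1.24% were lower and 0.846% higher in every mouse.

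Reads per cell did not separate the classes beyond the spread between the 7 mice, whereas detected genes were higher in the Prlr/Esr1-high cells of all 3 virgin mice. Per mouse, the median reads per Prlr/Esr1-high cell minus that of other cells averaged -52969 reads (two-sided exact sign-flip permutation test over 128 arrangements, p = 0.609 adjusted over 4 measures), and it was positive in 3 of 7 mice. The median of detected genes was on average 414 higher and was higher in 5 of 7 mice (exact permutation, adjusted p = 0.500). For vBrL, vBr53L and v53L the difference was 543.5, 1227.5 and 936 detected genes, and the part of this in the virgin calls was not tested. The milk protein sum differed by -0.57 on the log2 scale of CPM + 1 (exact permutation, adjusted p = 0.609, higher in 3 of 7 mice) and the sum of 20 proliferation genes by 0.23 (exact permutation, adjusted p = 0.609, higher in 5 of 7 mice). The proliferation sum was 102 CPM in the Prlr/Esr1-high cells of v53L and 33.4 CPM in its other cells, and at least 376 CPM in every other sum.

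**Figure D4:**
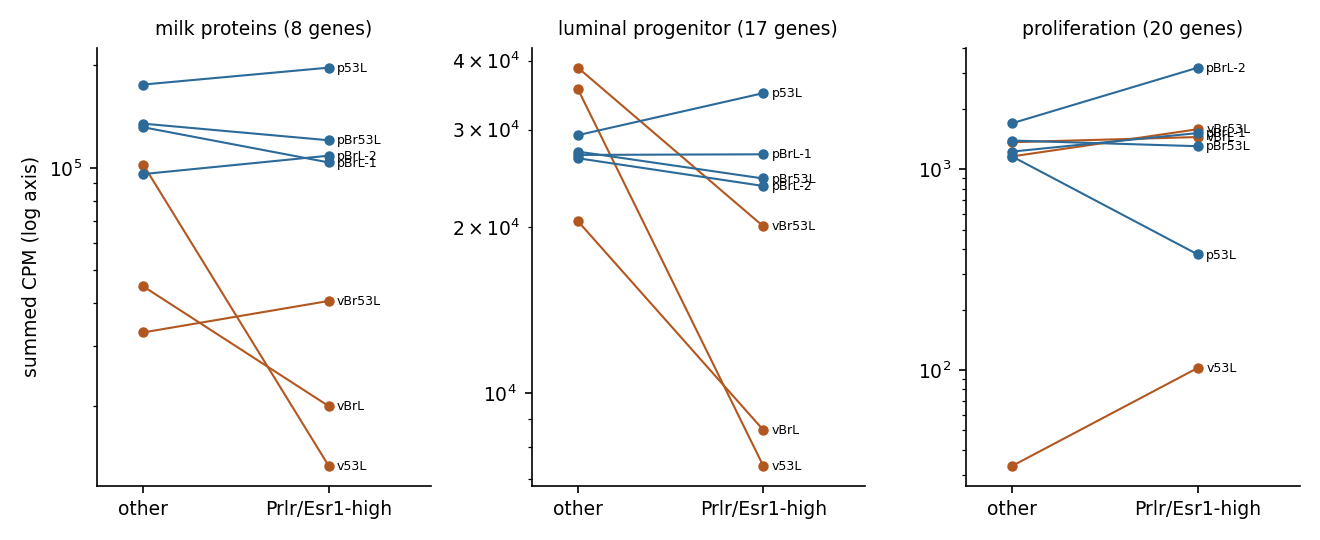
Summed CPM (log axis) of 8 milk protein, 17 luminal progenitor and 20 proliferation genes in other and Prlr/Esr1-high cells, joined within each mouse (orange virgin, blue pregnant). Milk lines of vBrL and v53L slope down, from 102200 to 13327 CPM in v53L, and progenitor lines slope down in all 3 virgin mice. In the proliferation panel p53L falls from 1153 to 376 CPM and pBrL-2 rises from 1693 to 3198 CPM.

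Markers of other cell types differed in level between mice and classes, and those of red cells were higher in the Prlr/Esr1-high cells of all 3 virgin mice. The 8 immune markers summed to 1231 CPM in the Prlr/Esr1-high cells of vBrL, of which Cd74, the MHC class II invariant chain, gave 1044 CPM, Lyz2 141 CPM and Csf1r, the macrophage growth factor receptor, 42.6 CPM (0 CPM in the other cells of vBrL), with Ptprc, the leukocyte antigen CD45, at 0.0428 CPM. In the Prlr/Esr1-high cells of the other mice the immune sum was 3.43 to 524 CPM and in the other cells 24.8 to 941 CPM. The 10 basal markers summed to 2.40 to 152 CPM in the Prlr/Esr1-high cells and 0.234 to 654 CPM in the other cells, and the 6 endothelial markers to 0 to 65.6 CPM and 0.0218 to 14 CPM. The 5 red cell markers moved with the class in virgin mice, at 38.6, 146 and 23.8 CPM in the Prlr/Esr1-high cells of vBrL, vBr53L and v53L against 5.94, 0.478 and 0 CPM. Thinned reads of Hba-a1, an alpha globin gene, were in 18 of 50 and 2 of 64 virgin cells. In pregnant mice the red cell sum was 0.123 to 10.5 CPM and 0.140 to 1.18 CPM. The 10 pan-luminal genes, among them Krt8, Krt18 and Epcam, summed to 6767 to 16131 CPM in Prlr/Esr1-high cells and 9814 to 16069 CPM in the others, so both classes were luminal. The part of these markers in the comparison was not tested.

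In pregnant mice the genes called in virgin mice were carried by few cells. Cited1 had 0 CPM in pBrL-1, 1.11 CPM in pBrL-2, 107 CPM in pBr53L and 76.3 CPM in p53L, with 0 to 1.62 CPM in other cells. Calca had 0, 311, 1900 and 1260 CPM and Tph1 0, 470, 29.5 and 63.2 CPM in the same mice. pBrL-1 had 0 reads of these 3 genes, and pBrL-2 was within the range of the other cells for Cited1 and above it for Calca and Tph1. The 4 cells with a read of Pgr, Cited1 or Foxa1 held a median of 100% of the reads of the remaining 19 called genes over the 37 cells (63.2% for Areg to 100%, over 90% for 17 genes). Outside those 4 cells, the Prlr/Esr1-high cells of pregnant mice thus held almost no reads of this set. Jak2, the kinase bound to the prolactin receptor, had 64.7, 105, 30.7 and 54.6 CPM in Prlr/Esr1-high against 20.4, 30.4, 23.7 and 20.8 CPM in other cells of pBrL-1, pBrL-2, pBr53L and p53L, which was the same direction in all 4 mice (1.39 ± 0.62, edgeR adjusted p = 0.980), as for 3.15% of genes tested. Of the 14 prolactin pathway genes tested in pregnant mice, 6 had a positive and 8 a negative fitted value, and 0 were called.

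Pregnancy was then compared within the Prlr/Esr1-high cells, which by the other markers were largely different cells at each stage, since 42 of 50 virgin and 4 of 37 pregnant cells had a thinned read of Pgr, Cited1 or Foxa1. A change within a cell kind and a change in which cells met the rule cannot be told apart here. The 3 of 10583 genes called (0.0283%) were Cd36, which rose (0.00945% of genes rose), and Fgg and Fxyd6, which fell (0.0189%), with 798 genes at an unadjusted p under 0.05. Cd36, the fatty acid translocase of milk lipid uptake, had 0.214, 0 and 0.691 CPM in vBrL, vBr53L and v53L and 1795, 1128, 999.6 and 1415 CPM in pBrL-1, pBrL-2, pBr53L and p53L (12.11 ± 1.13, edgeR adjusted p = 0.00630). The stages did not overlap, and 29 of 37 pregnant against 2 of 50 virgin cells had a thinned read. Fgg, the fibrinogen gamma chain, had 172, 332 and 1333 CPM in virgin mice and 0 reads in the 4 pregnant mice, at least 14397-fold lower against a floor of 3 reads over the group (edgeR adjusted p = 0.0253). Most of its virgin reads came from v53L, and without that mouse the bound was 5116-fold. Fxyd6, a regulator of the sodium pump, had 92, 212 and 56.2 CPM in virgin mice and 2 reads in pregnant mice (ratio 3459, counting interval 957 to 28558, edgeR adjusted p = 0.0325). Each gene had groups that did not overlap, as did 10.3% of genes tested. The count was 7 without vBr53L, 5 without v53L, 1 without pBrL-1, 1 without pBr53L and 104 with the chip as a block, a fit left with 1 residual degree of freedom. Cd36 was called in 16 of 16 alternatives, Fgg in 12 (edgeR adjusted p up to 0.328) and Fxyd6 in 8 (up to 0.140).

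**Figure D5:**
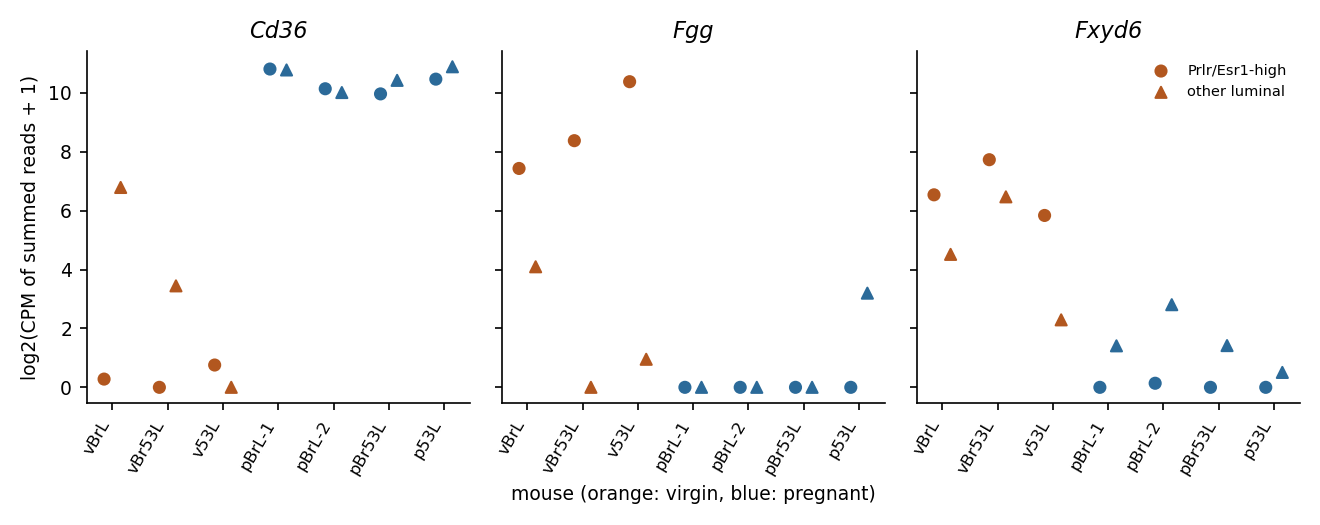
log2(CPM + 1) of summed reads of Cd36, Fgg and Fxyd6 in Prlr/Esr1-high (circles) and other luminal cells (triangles) of each mouse, orange for virgin and blue for pregnant. Cd36 is high in both classes of all 4 pregnant mice, whereas Fgg is present in the Prlr/Esr1-high cells of the 3 virgin mice and at 0 in those of the pregnant mice.

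The other luminal cells of the same mice are set beside these values, and share the mice but no cells with them. There 1 of 11849 genes was called (0.00844%), Clca3a2, which fell (-4.58 ± 0.48, edgeR adjusted p = 0.0342), a count that was 10 with the chip as a block, 25 without vBrL and 0 without vBr53L, pBrL-1, pBrL-2, pBr53L or p53L. Cd36 had 110, 9.90 and 0 CPM in the virgin and 1032 to 1894 CPM in the pregnant other cells (5.24 ± 1.56, edgeR adjusted p = 0.402), so its level in pregnancy was alike in range in both classes. Fgg had 16.1, 0 and 0.935 CPM and Fxyd6 21.9, 87.6 and 3.90 CPM in virgin other cells. Of 8 milk protein genes all had a positive fitted change in the Prlr/Esr1-high cells (median 2.52, 0 called), and of 16 milk lipid genes 15 did (median 2.37, 1 called, Cd36). In the other luminal cells 6 of the 8 milk protein genes (median 1.47) and 11 of the 16 milk lipid genes (median 1.60) had a positive fitted change, with 0 called in either list. The median over all genes tested was 0.004 in the Prlr/Esr1-high and 0.06 in the other luminal cells.

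The Brca1 genotype, fitted with stage within the Prlr/Esr1-high cells, gave 0 of 11606 genes called by edgeR (0%), 523 at an unadjusted p under 0.05, and 407 by DESeq2. The count was 3 without p53L. Brca1 itself had 0 to 10.3 CPM in the 2 mice with intact Brca1 and 0.429 to 80.9 CPM in the 5 Brca1 fl/fl mice, and these reads count the whole gene and do not show the deleted part. Trp53 had 78.1 to 246 CPM in the 4 Trp53 fl/+ mice and 147 to 591 CPM in the other 3.

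The genes whose levels over cells were most like those of the rule genes included some of the called genes, and the measure uses the same Prlr and Esr1 values as the rule. Over all 312 luminal cells, among genes with a read in at least 10% of cells, Spearman's rho of log2(CPM + 1) with Prlr was 0.51 for Pgr, 0.50 for Tbx3, 0.49 for Cxcl15 and 0.47 for Tspan1, followed by Cdo1, Clip4, Mtmr7, Slc7a2, Tspan13 and Fgfr2 down to 0.45. With Esr1 it was 0.49 for Tbx3 and 0.48 for Cyp3a57, followed by Cdo1, Slc7a2, Kcnh1, Cd200, Mtmr7, Cxcl15, Tspan1 and Pgr down to 0.45. Within the 114 virgin cells rho with Prlr was 0.75 for Pgr and 0.70 for Esr1, and within the 198 pregnant cells 0.13 and 0.15. Cells share a mouse, a chip and a read depth, so these values are a description of the cells, and the low values in pregnancy are no finding.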

How the data were processed

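The deposited table holds raw read counts of 21004 genes in 477 C1 cells. Per the labels and the methods of the study, the authors trimmed reads (Trim Galore 0.4.1), aligned them to mm10 with STAR 2.5.3a and counted them per gene with Subread 1.5.3, and capture sites were inspected for doublets under the microscope. 20919 of the 21004 symbols matched GENCODE vM21. No cell was dropped, no doublet caller was run, and no 2 luminal cells held identical counts.

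CPM were computed per cell. For gene tests, counts were summed per mouse and class, low genes removed with filterByExpr, scaled by TMM and tested with edgeR 4.0.16 (R 4.3.3) with the mouse as a block for class comparisons. DESeq2 1.42.0 and limma 3.58.1 were alternatives. Called means an adjusted p under 0.05. The fits by stage were added after the data were seen. Fold changes are log2 with their SE, and those of genes with few reads in the lower group depend on the prior count. CPM per mouse are of summed reads. The share of cells with a marker read was tested by exact permutation over mice, which are the replicates. The share taken by the rule, for which such a test had been planned, is given without one. The fits were also run on simulated counts, with 200 genes of at least 10 CPM changed 64-fold and no effect of the mouse. They gave back 86.5% of these genes over all mice, 77% in virgin mice and 75.5% for pregnancy in Prlr/Esr1-high cells. False calls were 1.7 to 5.5% of the calls. Smaller changes were not simulated. Cells and gene lists were chosen with earlier results of these data known. Named genes were called genes with at least 10 CPM in the higher class and one direction in every mouse (for stage, no overlap), the 12 largest per direction, and genes of the fixed lists. The other called genes were named after their values were seen, and 1 called gene is not reported here. CPM is not scaled by gene length, so levels are compared within a gene only. Promoters are from RefSeq on GRCm38.p6.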

Additional observations from a re-analysis of the deposited data

Results flagged for a closer look

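Among the 4 pregnant mice, 2 of 20 sets of values examined held a mouse far from the rest by Dixon's test, where chance gives about 1 in 20. Tph1 in the Prlr/Esr1-high cells was 470 CPM in pBrL-2, with 63.2 CPM as the next highest mouse. A thinned read of it was in 1 of the 9 such cells of pBrL-2. Ptn was 556 CPM in pBr53L, with 70.9 CPM as the next highest, and had a thinned read in 1 of the 8 such cells of pBr53L. Both values thus rested largely on 1 cell each. In tumor Br53T2, which no comparison above used, 47.1% of cells met the same rule (24 of 51, exact 95% interval 32.9 to 61.5%), where the luminal mice ran from 15.1% in pBr53L to 70% in v53L. Br53T2 was on the chip of pBrL-2, which had 23.7%.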

How the results depend on the processing

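With 7 mice the counts of called genes moved with the tool and the filter. DESeq2 called 354 genes between the classes over all mice, 779 in virgin mice, 304 in pregnant mice, 368 for pregnancy in Prlr/Esr1-high cells, 435 for pregnancy in other cells, 737 for the interaction and 407 for the Brca1 genotype, where edgeR called 2, 21, 0, 3, 1, 0 and 0. Without the low-count filter edgeR called 14, 69, 1, 90, 3, 3 and 56. The cause of these gaps was not tested. With 1 mouse left out the counts ran from 0 to 13, 24 to 42, 0 to 0, 1 to 7, 0 to 25, 0 to 2 and 0 to 3, with 25 without vBrL for pregnancy in other cells, 41 without vBrL and 42 without v53L in virgin mice. The virgin fits with 1 mouse left out held 2 mice and 1 residual degree of freedom. In the class comparison not split by stage, mice with too few cells in a class left the fit. Its count was 0 with Esr1 alone (6 mice) and 0 against other cells with 0 reads of Prlr and Esr1 (4 mice). With both thresholds it was 12 (11 higher and 1 lower), from vBrL and v53L only, with 1 residual degree of freedom. It was 0 with doubled thresholds, 1 with limma, 21 in virgin mice only and 0 in pregnant mice only. In virgin mice it was 32 with RLE size factors, 0 with Esr1 alone and 13 with halved thresholds. For pregnancy in Prlr/Esr1-high cells it was 1 with genotype as a covariate, 17 with halved thresholds, 54 with limma and 104 with the chip as a block (41 higher and 63 lower, 1 residual degree of freedom), and for pregnancy in other cells it was 10 with that block. The 3 genes called for pregnancy were also called with the chip as a block, which was added after seeing the data.

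The mouse is the block of every class comparison, since both classes come from the same mouse. Without the replicate block the count was 2 over all mice, 18 in virgin mice, 0 in pregnant mice and 2 for the interaction. Stage and genotype share no mouse, and 2 chips held a virgin and a pregnant mouse each, which gave the chip block above. No paired analysis was possible for the Brca1 genotype because no chip held luminal cells of both genotypes.

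The virgin minus pregnant share was 27.4 points with Prlr alone, 22.8 with both thresholds, 30.6 with doubled thresholds, 26.5 on thinned cells, 18.9 with Esr1 alone and 12.8 with halved thresholds. The within-chip differences were 7.98 and 45 points, and with 1 mouse left out the difference ran from 10.3 to 33.8 points. The share difference by Brca1 was -22.1 points with halved thresholds and ran from -47.1 to -2.1 points with 1 mouse left out. The marker difference was 69.2 points with Esr1 alone (exact permutation p = 0.0571) and 60.3 to 73.4 points with 1 mouse left out, where the splits cannot give a p under 0.0667. The difference in median reads per cell was 12086 without p53L, opposite in sign to the -52969 over all mice, and ran from -93294 to 12086. With Esr1 alone, cells high in Prlr only move to the other class. The log2 fold change became -0.055 for Calca, -1.12 for Ptn and -0.49 for Hepacam2 over the 6 mice fitted, and -0.51 for Foxa1 in virgin mice. The fit of virgin mice against cells with 0 reads of both genes could not be made, since 1 mouse alone had 3 such cells. With each cell thinned to 100000 reads the count was 27 in virgin mice and 2 over all mice.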

Other observations

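The rule was also applied to the tumors. It took 0 of 47 cells in BrT1 (up to 7.55%), 2 of 37 in BrT2 and 1 of 30 in Br53T1. Of the 24 cells it took in Br53T2, 22 passed by Prlr, up to 7018 CPM, 9 passed by Esr1, up to 1650 CPM, and 19 had at least 10 CPM of Pgr, Cited1 or Foxa1. In the other 3 tumors 0 of the 3 cells taken did. Each tumor is 1 library source, so this difference has no replicate and was not tested.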
